A study of Homo sapiens with 4 samples.

Results

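The mRNAs of 10 genes that carry the DNA damage checkpoint signal were examined, 5 kinases (ATM, ATR, PRKDC, CHEK1 and CHEK2) and 5 mediators (ATRIP, TOPBP1, TP53BP1, MDC1 and CLSPN). They were taken by symbol from the 59050 gene symbols of the deposited counts, and all 10 were found and passed the filter on low counts. RNA-seq covered 4 libraries of poly(A) RNA labelled HepG2, a human line established from a liver tumor. The control group was untreated cells (0 h, 2 libraries), and the other group was cells given doxorubicin, which poisons topoisomerase II and breaks DNA, at 1 ug/ml for 24 h (2 libraries). The study used the drug to raise p53. The treatment tag of the doxorubicin libraries reads p53-miRNA, so their titles and the protocol were followed. The series text calls the replicates biological and does not name separate cultures, so the p-values below measure the spread between these libraries.

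When DNA breaks, ATM is switched on at double-strand breaks and ATR at single-stranded DNA, and both then phosphorylate many proteins. ATM acts mainly through the kinase CHK2 (gene CHEK2), and ATR through CHK1 (CHEK1), to stop the cell cycle and, in part, to stabilise p53. Mediators bring the kinases and their substrates together. These proteins are controlled largely by phosphorylation and by recruitment to damage, which mRNA counts do not show.

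The libraries held 27572740 to 36272180 counts, and the 10 genes took 0.0702% to 0.107% of them. The untreated replicates were at least 2-fold apart in CPM (a gene's counts divided by the library total and multiplied by 1000000) in 46% of the 17479 genes tested, against 6.1% for the doxorubicin replicates. Untreated replicate 2 was the lowest or the highest library in 81.6% of genes and in all 10 members, so their fold changes, and those of the pathway genes, are given with and without it. Genes that define liver were nearly absent in every library. ALB had at most 3 counts, and the summed CPM of 10 liver markers was between 1.16 and 7.02, with 4, 0, 1 and 4 of the markers at 0. The sum was lower in both untreated libraries (1.16 and 3.67 CPM) than in both doxorubicin libraries (7.02 and 5.62 CPM), and so was that of 4 basal squamous markers (2.84 and 3.60 against 7.90 and 5.44 CPM). The sum of 4 simple epithelium markers was higher in both untreated libraries (5898 and 4751 CPM) than in the treated ones (3527 and 3025 CPM). KRT8 and KRT18 carried nearly all of it, while EPCAM had at most 7 counts and CDH1 at most 21 counts in a library. KRT8 had non-overlapping groups, while KRT18 gave 1793 and 783 CPM untreated and 1086 and 937 CPM treated. Sums of 4 mesenchymal markers lay between 115 and 160 CPM, and 4 leukocyte markers reached at most 0.519 CPM. The part of these markers in the results below was not tested. In bulk RNA, fewer cells of a type and less RNA per cell cannot be told apart.

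No checkpoint kinase or mediator differed between the groups past both thresholds in edgeR's quasi-likelihood test, which were 0.05 for the Benjamini-Hochberg adjusted p-value and 1 for the size of the log2 fold change. Across all 17479 genes this test called 0%, and 4.39% had an unadjusted p-value under 0.05, against 0 of the 10 genes. In CPM, scaled by library total, the groups did not overlap in 4 of the 10 (ATM, ATR and TOPBP1 higher with doxorubicin, ATRIP lower), beside 41.8% of all genes. This depended on scaling. In log2 CPM with TMM factors, the scaling of the fit, doxorubicin replicate 1 fell below untreated replicate 1 in ATR (4.79 and 4.84) and TOPBP1 (6.05 and 6.14). CLSPN then did not overlap (6.01 and 6.40 untreated, 5.70 and 5.82 treated). The share over all genes with TMM factors was not computed. Of the 10 genes, 6 had a log2 fold change above 0, beside 50.8% of all genes, and their median log2 fold change was 0.17 beside 0.01 over all genes. Without untreated replicate 2, 3 were above 0 (54.3% of all genes in that fit) and the median was -0.27 beside 0.05. In both fits the 95% confidence interval of each of the 10 log2 fold changes included 0. An exact permutation test over 2 against 2 libraries cannot give a two-sided p-value below 0.333.

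**Figure D1:**
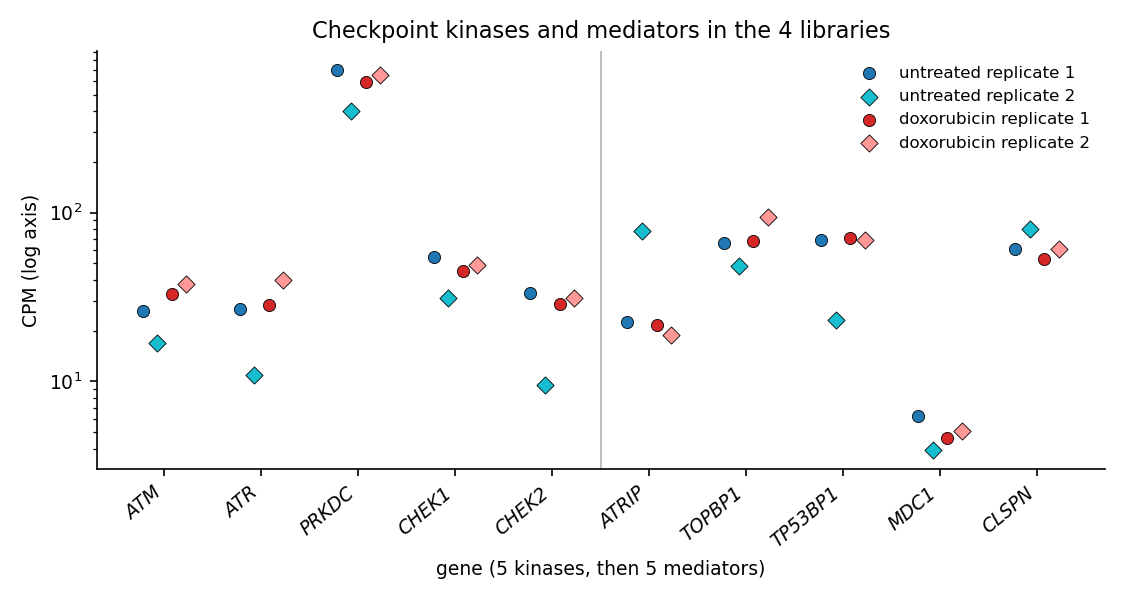
CPM of the 10 genes (log axis) in each of the 4 libraries, kinases on the left and mediators on the right, with 1 point per library. Untreated replicate 2 is the lowest point for 8 genes and the highest for ATRIP and CLSPN, while PRKDC stands above the other 9 genes in every library.

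ATM (chromosome 11, 108223044 to 108369102, GRCh38) encodes the kinase that answers double-strand breaks. Untreated replicates 1 and 2 gave 26.2 and 16.9 CPM, and doxorubicin replicates 1 and 2 gave 33.0 and 37.8 CPM. Both doxorubicin libraries were above both untreated libraries, as they were in 30.3% of all genes. The log2 fold change was 0.55 (standard error 0.41), with a 95% confidence interval of -0.46 to 1.56 and an adjusted p-value of 0.773 (edgeR). Without untreated replicate 2 it was 0.28 (interval -0.22 to 0.78).

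ATR (chromosome 3, 142449007 to 142578733) encodes the kinase that answers stalled replication forks. It had 26.9 and 10.9 CPM without doxorubicin and 28.3 and 39.9 CPM with it. The groups did not overlap in CPM, but doxorubicin replicate 1 was close to untreated replicate 1, and below it with TMM factors. The 2 untreated libraries lay further apart than those libraries. The log2 fold change was 0.68 (standard error 0.54, interval -0.66 to 2.02), and 0.19 without untreated replicate 2 (interval -0.31 to 0.69).

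PRKDC (chromosome 8, 47773111 to 47960178) encodes DNA-PKcs, which joins broken ends together with the Ku proteins. It was the most abundant of the 10 genes, with 704 and 400 CPM in the untreated libraries and 593 and 655 CPM in the treated ones. The treated libraries lay between the untreated ones. Its log2 fold change of 0.02 (standard error 0.35) changed sign to -0.32 without untreated replicate 2 (interval -0.74 to 0.09), and was also below 0 with RLE or upper-quartile factors.

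CHEK1 (chromosome 11, 125625163 to 125676255) encodes the kinase downstream of ATR. Its untreated libraries gave 54.6 and 31.03 CPM, and its treated libraries 44.9 and 48.7. CHEK2 (chromosome 22, 28687743 to 28742422) encodes the kinase downstream of ATM, and gave 33.4 and 9.56 CPM untreated and 28.9 and 31.05 CPM treated. In both genes the treated libraries fell inside the untreated range, a little below untreated replicate 1 and well above replicate 2. The log2 fold change of CHEK1 was -0.03 (standard error 0.41, interval -1.06 to 0.99), with a sign that turned to 0.13 when libraries were scaled by size alone. That of CHEK2 was 0.32 (standard error 0.63, interval -1.26 to 1.90). Without untreated replicate 2 they were -0.37 and -0.30, and the upper bounds of their intervals were 0.10 and 0.19. The 4 rows for CHEK2 pseudogenes, which could take reads from the gene, had at most 4 counts in a library.

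ATRIP, the obligate partner of ATR, stood apart from the other mediators. It lies on chromosome 3 (48446710 to 48467645), and gave 22.4 and 78.1 CPM untreated and 21.5 and 18.9 CPM treated. Both treated libraries were below both untreated libraries, as in 11.5% of all genes, but untreated replicate 1 differed little from them. The log2 fold change was -1.46 (standard error 0.64, interval -3.07 to 0.14, edgeR unadjusted p-value 0.0661, adjusted 0.773), the largest in size among the 10. The unadjusted p-value was 0.0458 in edgeR's exact test (under 0.05 in 5.61% of all genes), 0.0409 in its likelihood ratio test (6.79%) and 0.0236 in DESeq2 (7.29%), with adjusted p-values of 0.882, 0.724 and 0.508. These tests called 0.217%, 0.366% and 0.509% of all genes, the fit with a replicate block called 0.114%, and none of them called a member. Without untreated replicate 2 the log2 fold change was -0.30 (interval -0.81 to 0.22). In the reference annotation ATRIP shares 1448 of its 5010 exon bases with TREX1 on the same strand, and TREX1 was listed at 0 in all 4 libraries. How reads of the shared bases were assigned was not tested.

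TOPBP1 (chromosome 3, 133598175 to 133662380), the direct activator of ATR, gave 66.3 and 48.3 CPM untreated and 67.8 and 94.5 CPM treated. Doxorubicin replicate 2 was the high library, while replicate 1 was close to untreated replicate 1. The log2 fold change was 0.34 (standard error 0.36, interval -0.57 to 1.24) and 0.14 without untreated replicate 2. CLSPN (chromosome 1, 35720218 to 35769978) encodes claspin, which presents CHK1 to ATR. It had 60.9 and 80.2 CPM without the drug and 53.01 and 61.2 CPM with it, so that the groups overlapped in CPM, but not with TMM factors. Its log2 fold change of -0.46 (standard error 0.34, interval -1.31 to 0.38) was -0.24 without untreated replicate 2.

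TP53BP1 (chromosome 15, 43403061 to 43510728) encodes 53BP1, which binds marked chromatin around breaks and favours end joining. Its CPM was 68.7, 70.8 and 68.6 in untreated replicate 1 and doxorubicin replicates 1 and 2, and 23.1 in untreated replicate 2. Outside that library its level was almost flat. The log2 fold change was 0.44 (standard error 0.56, interval -0.95 to 1.84) with all libraries and -0.12 (interval -0.58 to 0.34) without untreated replicate 2. TP53BP1 shares 3067 exon bases with TUBGCP4 on the opposite strand, and the use of strand in counting is not given in the sources used here.

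MDC1 (chromosome 6, 30699807 to 30717447) encodes the adaptor that reads phosphorylated histone H2AX. It had the fewest reads of the 10 genes, with 227 and 113 counts (6.26 and 3.91 CPM) in untreated cells and 158 and 141 counts (4.60 and 5.11 CPM) in treated cells. The treated libraries lay between the untreated ones, and the log2 fold change was -0.23 (standard error 0.52, interval -1.52 to 1.06), or -0.51 (interval -1.15 to 0.12) without untreated replicate 2. The gene lies in the major histocompatibility complex, where few genes had counts. Of the 33 protein-coding genes within 500 kb of MDC1, 24 (72.7%) had at most 10 counts in every library, against 28.3% of 18867 protein-coding genes, and against 0% to 50% around the other 9 members. TUBB, which encodes a widely expressed beta tubulin and starts head to head with MDC1, had at most 5 counts. Whether the counts of MDC1 are complete was not tested, and its level is given with that limit.

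**Figure D2:**
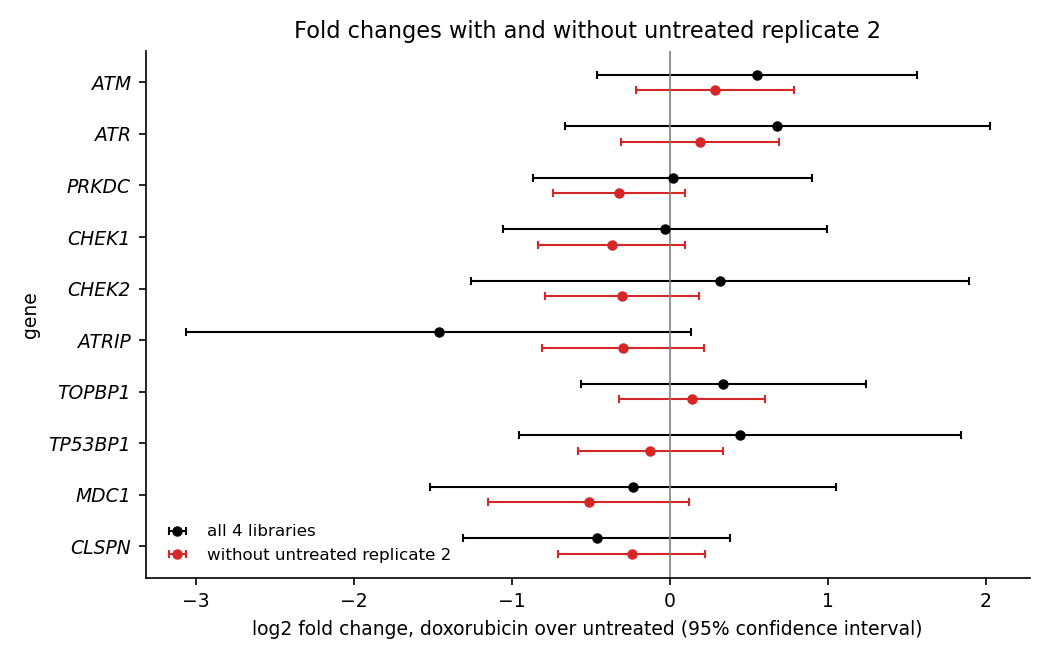
Log2 fold change of doxorubicin over untreated for the 10 genes, with 95% confidence intervals from the edgeR quasi-likelihood fit, in black for all 4 libraries and in red without untreated replicate 2. All 20 intervals include 0. Those in red are narrower but rest on 1 untreated library, and without replicate 2 the value for ATRIP moves from -1.46 to -0.30.

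The fit without untreated replicate 2 rests on 1 untreated library, which is assumed to vary like the doxorubicin pair. It called 815 of 18356 genes (4.44%), and 0 of the 10 members. The members' smallest adjusted p-value was 0.397 (edgeR). At an unadjusted p-value under 0.05 it found 19.1% of all genes and again 0 of the 10. The log2 fold changes of the members in this fit ran from -0.51 (MDC1) to 0.28 (ATM). Its intervals set no bound on a change. The untreated replicates were at least 2-fold apart in 46% of genes, against 6.1% for the doxorubicin pair. The values also depended on which untreated library was kept. The members' median was -0.27 without untreated replicate 2 and 0.61 without untreated replicate 1. In CPM, both doxorubicin libraries were above untreated replicate 1 in ATM, ATR and TOPBP1 (53.1% of all genes did so). They were below it in PRKDC, CHEK1, CHEK2, ATRIP and MDC1 (24.7% of all genes). With TMM factors, doxorubicin replicate 1 was below untreated replicate 1 in ATR and TOPBP1, and both doxorubicin libraries were below it in TP53BP1 and CLSPN. When untreated replicate 1 was left out in place of replicate 2, 4 members passed the thresholds (ATR, CHEK2 and TP53BP1 as higher and ATRIP as lower), where 44.4% of all genes did, and 9 had an unadjusted p-value under 0.05, as did 62.2% of all genes.

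Levels were compared between genes per kilobase of merged exons. In doxorubicin-treated cells PRKDC had 45.8 ± 3.26 CPM per kb (SD, n = 2). TOPBP1 (13.1 ± 3.04) and CHEK2 (12.8 ± 0.647) followed and their replicates overlapped. CHEK1 had 9.61 ± 0.551 CPM per kb, apart from both neighbours in this order. TP53BP1 (6.57 ± 0.151) and CLSPN (6.16 ± 0.626) overlapped, as did ATR (4.18 ± 1.01) and ATRIP (4.03 ± 0.374). ATM had 1.73 ± 0.165 CPM per kb and MDC1 had 0.697 ± 0.0517. In untreated cells PRKDC was again first, at 40.5 ± 15.7 CPM per kb, and TOPBP1, CHEK2, CHEK1, CLSPN and ATRIP could not be ordered, since the replicates of neighbouring genes overlapped.

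Ratios of these levels within a library do not depend on how libraries are scaled. ATR over ATRIP was 0.736 in untreated replicate 1 and 0.808 and 1.30 in the doxorubicin libraries, and 0.0861 in untreated replicate 2. CHEK1 over CHEK2 was 0.784, 0.744 and 0.752 in the same 3 libraries and 1.56 in untreated replicate 2. CHEK1 over CLSPN, the kinase and its adaptor, was 1.71, 1.61 and 1.52 against 0.737. TOPBP1 over ATR was 3.24, 3.15 and 3.12 against 5.80, and ATM over ATR 0.389, 0.465 and 0.378 against 0.617. TP53BP1 over MDC1 was 7.20, 10.1 and 8.80 against 3.88. In these 6 of the 7 ratios computed, untreated replicate 2 lay beyond the other 3 libraries. For PRKDC over ATM it did not, with 40.3 and 35.5 in the untreated and 26.9 and 26.0 in the doxorubicin libraries. The 2 groups did not overlap in 5 of the 7 ratios, all but ATM over ATR and CHEK1 over CLSPN. Several ratios share a gene, and the share over other gene pairs was not computed, so neither count is a result about these genes. No test was run on the ratios.

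The 2 untreated replicates differed in all 10 genes by more than counting error, since their exact Poisson 95% intervals did not overlap in any of them. In the doxorubicin replicates this held for 5 of 10. Such intervals cover counting error alone and are narrow at high counts. The share over all genes was not computed, so these counts cannot show anything particular to the members. Untreated replicate 2 was the lowest library for 8 of the 10 genes (45% of all genes) and the highest for 2, ATRIP and CLSPN (36.6% of all genes). Relative to replicate 1, CPM in replicate 2 was 0.287 times as high for CHEK2, 0.337 times for TP53BP1 and 0.407 times for ATR. It was 3.48 times as high for ATRIP, and these 4 genes were the members at least 2-fold apart.

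The checkpoint genes are long. The median length from start to end was 59.4 kb for the 10 genes and 32.9 kb for the 12707 protein-coding genes tested, and the median merged exon length was 7.56 kb against 3.90 kb. In untreated replicate 2, log2 CPM fell with gene length relative to the mean of the other 3 libraries. The median difference was 0.72 for genes of up to 5 kb, 0.36 for genes of 5 to 20 kb, -0.06 for 20 to 50 kb, -0.58 for 50 to 100 kb and -1.21 for genes above 100 kb. Between the doxorubicin libraries and untreated replicate 1 the same medians were between -0.06 and 0.03, and between the doxorubicin replicates they were between -0.17 and 0.08.

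Of the 10 genes, 6 lay within the quartiles of their own length class. That range holds a fixed share of each class by construction, and 6 of 10 is close to it. ATM, ATR, PRKDC and TP53BP1, each above 100 kb, were lower in untreated replicate 2 by 0.82, 1.41, 0.60 and 1.48 on the log2 scale. CHEK1 and TOPBP1 (51.1 and 64.2 kb) were lower by 0.57 and 0.54. The 4 outside their class were CHEK2 (54.7 kb, -1.59) and MDC1 (17.6 kb, -0.33), which were below it, and ATRIP (20.9 kb, 2.00) and CLSPN (49.8 kb, 0.56), which were above it. The part of gene length in these differences was not tested.

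**Figure D3:**
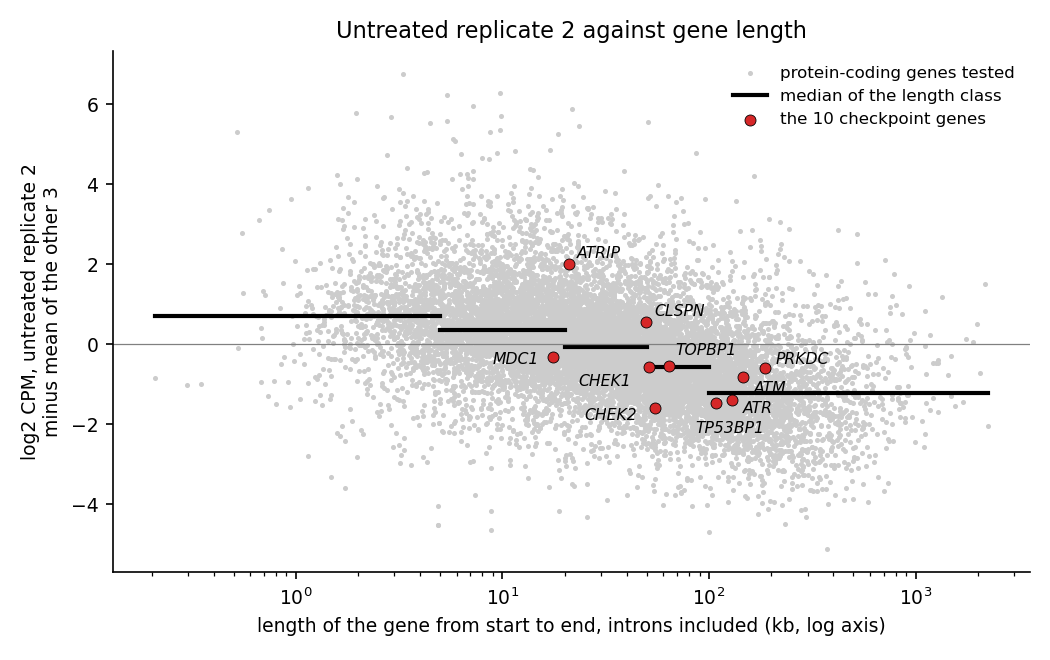
Log2 CPM of untreated replicate 2 minus the mean of the other 3 libraries against gene length in kb (log axis), with 1 grey point per protein-coding gene tested, black bars for the median of each length class and the 10 checkpoint genes in red. The class medians descend from 0.72 to -1.21, and ATRIP at 2.00 is the member highest above its class.

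For 5 members the annotation has a protein-coding gene on the opposite strand that starts within 1000 bases. The neighbour of MDC1 is TUBB, with at most 5 counts, and the other 4 pairs were compared library by library. The neighbour of ATM is NPAT, a regulator of histone gene transcription, that of PRKDC is MCM4, a subunit of the replicative helicase, that of CHEK2 is HSCB, a co-chaperone for iron-sulfur clusters, and that of TP53BP1 is MAP1A, a microtubule-associated protein. RefSeq places the starts of CHEK2 and HSCB 212 bases apart and those of TP53BP1 and MAP1A 314 bases apart. The start regions of CHEK2 and TP53BP1 are shown because both pairs diverged in untreated replicate 2. Each runs from 250 bases before the start to 50 bases after it (RefSeq, GRCh38.p14, minus strand), at chr22:28741771-28742070 for CHEK2 and chr15:43510591-43510890 for TP53BP1. Capitals mark a CCAAT box, read here as ATTGG because it lies on the opposite strand.
CHEK2: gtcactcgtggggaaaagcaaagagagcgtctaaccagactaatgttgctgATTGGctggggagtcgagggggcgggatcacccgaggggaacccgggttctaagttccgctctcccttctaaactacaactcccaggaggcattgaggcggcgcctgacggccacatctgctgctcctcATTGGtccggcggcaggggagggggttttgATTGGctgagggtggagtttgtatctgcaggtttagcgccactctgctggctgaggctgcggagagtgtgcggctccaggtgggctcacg
TP53BP1: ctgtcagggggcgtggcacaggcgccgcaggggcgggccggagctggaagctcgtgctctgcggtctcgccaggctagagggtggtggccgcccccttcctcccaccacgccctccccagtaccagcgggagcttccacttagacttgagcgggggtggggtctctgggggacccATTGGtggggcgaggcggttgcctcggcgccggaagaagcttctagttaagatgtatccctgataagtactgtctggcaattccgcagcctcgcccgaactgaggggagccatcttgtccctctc

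HSCB gave 19.8 and 71.7 CPM in the untreated libraries and 20.6 and 22.1 CPM in the doxorubicin libraries, so it was highest where CHEK2 was lowest. MAP1A gave 1.46 and 14.8 CPM untreated and 2.16 and 2.18 CPM treated, likewise opposite to TP53BP1. MCM4 gave 481 and 559 CPM untreated and 387 and 386 CPM treated. It was highest in the library where PRKDC was lowest. NPAT, at 17.8 and 6.23 CPM untreated and 17.9 and 25.3 CPM treated, was low in the same library as ATM. HSCB (15.5 kb), MAP1A (20.7 kb) and MCM4 (18.0 kb) are shorter than their partners, and NPAT spans 65.4 kb. In CPM, both doxorubicin libraries were above untreated replicate 1 and below replicate 2 in HSCB and MAP1A, below both in MCM4 and above both in NPAT.

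**Figure D4:**
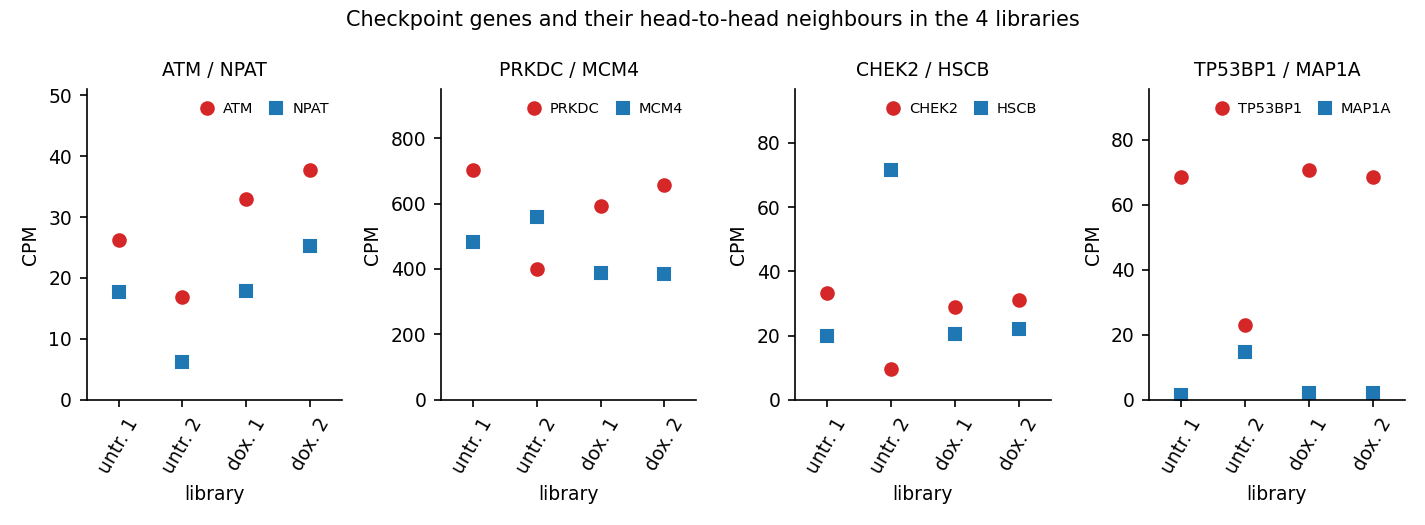
CPM of ATM, PRKDC, CHEK2 and TP53BP1 (red circles) and of the gene that starts next to each on the opposite strand (blue squares) in the 4 libraries. In untreated replicate 2, PRKDC, CHEK2 and TP53BP1 are at their lowest and MCM4, HSCB and MAP1A at their highest, while ATM and NPAT are both at their lowest.

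Start regions were listed in the RefSeq table for 9 of the 10 genes, all but PRKDC, with several starts for ATM, CHEK1 and ATRIP. A CCAAT box (letters CCAAT, either strand) was present for 7 of the 9 (ATM, CHEK1, CHEK2, ATRIP, TP53BP1, MDC1 and CLSPN), beside 42.6% of 10935 genes tested. Counted by region, it was in 11 of the 13 member regions, beside 34.6% of all 35116 regions. A GC box (GGGCGG, either strand) was present for 8 of the 9, beside 75.3% of genes tested, and in 10 of the 13 regions, beside 45.0% of all regions. The E2F site in the forms TTTCGCGC or TTTGGCGC was found for TOPBP1 alone, beside 2.37% of genes tested. That was 1 of the 13 regions, beside 1.15% of all regions. The cell cycle element TTTGAA was found for ATM and MDC1, beside 13.6% of genes tested, and in 2 of the 13 regions, beside 15.2% of all regions. The GC box and a CCAAT box can share G bases. These are matches of letters, and no binding was measured.

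The wider pathway was followed in 27 partner genes in 7 groups, all of which passed the filter. None passed the thresholds (edgeR), and 0 had an unadjusted p-value under 0.05, beside 4.39% of all genes, and DESeq2 and both other edgeR tests found 0 as well. Their median log2 fold change was -0.04, with 11 above 0 and 16 below 0, and a median of 0.12 when libraries were scaled by size alone, a scaling that moved the median of all genes from 0.01 to 0.17. Without untreated replicate 2, 5 of the 27 had an unadjusted p-value under 0.05, beside 19.1% of all genes, and 8 were above 0.

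The 2 groups did not overlap in CPM in 8 of the 27 partners, beside 41.8% of all genes. Both doxorubicin libraries were higher in 5 of them (MRE11, RAD50, RAD17, ETAA1 and TTI1, beside 30.3% of all genes) and lower in 3 (XRCC6, TELO2 and CDC25A, beside 11.5%). With TMM factors ETAA1 and TTI1 overlapped, while TTI2, RNF8, CDC25B and CDC25C no longer did. The shares over all genes given here are for CPM by library total, and those with TMM factors were not computed.

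Among the sensors of double-strand breaks, MRE11 and RAD50 had higher CPM in both doxorubicin libraries than in both untreated ones, at 26.6 and 37.5 against 24.1 and 18.7 for MRE11 and 7.81 and 7.98 against 6.56 and 5.58 for RAD50. Their log2 fold changes were 0.41 and 0.22 (standard errors 0.40 and 0.46), and 0.26 and 0.12 without untreated replicate 2. NBN, the third subunit of that complex, gave 38.2 and 7.45 CPM untreated and 34.3 and 36.5 CPM treated, again with untreated replicate 2 apart, and its log2 fold change turned from 0.47 to -0.26 without that library. XRCC5 and XRCC6 encode the Ku proteins that load DNA-PKcs. Their log2 fold changes were -0.02 (0.13 when libraries were scaled by size alone) and -0.32, or -0.36 and -0.44 without untreated replicate 2, and XRCC6 had 690 and 572 CPM in untreated cells against 571 and 556.

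The clamp of RAD9A, RAD1 and HUS1 recruits TOPBP1 to damaged DNA, with RAD17 as its loader and RHNO1 as a further factor. RAD9A gave 18.3 and 54.8 CPM untreated and 20.1 and 19.4 CPM treated. Its fold change of -1.04 on the log2 scale (standard error 0.59) was -0.04 without untreated replicate 2. RHNO1 went from -0.65 to 0.08 in the same way, while RAD1 gave 72.3 and 37.6 CPM untreated and 72.3 and 84.4 CPM treated and turned from 0.35 to -0.0332. HUS1 (-0.04, or 0.12 when libraries were scaled by size alone), RAD17 (0.58) and ETAA1 (0.17), a second activator of ATR, also had intervals that included 0. These were -0.14, 0.29 and 0.32 without untreated replicate 2. TELO2, TTI1 and TTI2 stabilise ATM, ATR and DNA-PKcs as newly made proteins. TELO2 gave 136 and 157 CPM untreated and 117 and 99.3 CPM treated, or -0.59 on the log2 scale (standard error 0.31), and TTI1 and TTI2 had 0.14 and -0.21. TELO2 and TTI2 had -0.48 and -0.30 without untreated replicate 2, and TTI1 turned to -0.0391.

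The effectors of CHK1 and CHK2 gave the only partner past an adjusted p-value of 0.05 in the fit without untreated replicate 2. CDC25B, a phosphatase that switches on cyclin-dependent kinases, had 314 and 222 CPM in untreated replicates 1 and 2 and 228 and 214 in treated cells. Untreated replicate 2 thus lay between the treated libraries in CPM, and CDC25B had a log2 fold change of -0.09 without untreated replicate 1. With all libraries its difference was -0.43 on the log2 scale (standard error 0.32, edgeR adjusted p-value 0.773), and it was -0.65 (standard error 0.22, adjusted p-value 0.0448, edgeR) without untreated replicate 2, where 6.34% of all genes passed that adjusted p-value. CDC25A gave 83.4 and 74.4 CPM untreated and 62.5 and 62.7 CPM treated, below both untreated libraries, with a log2 fold change of -0.49 (standard error 0.32), or -0.56 (unadjusted p-value 0.0154, edgeR) without untreated replicate 2. WEE1, the kinase that opposes CDC25, gave 24.0 and 51.1 CPM untreated and 32.8 and 50.4 CPM treated, and its log2 fold change moved from -0.02 (0.14 when libraries were scaled by size alone) to 0.64 without untreated replicate 2. PPM1D, the phosphatase that shuts the checkpoint off, gave 33.7 and 51.0 CPM untreated and 36.3 and 46.0 CPM treated, and its log2 fold change turned from -0.20 to 0.14 without untreated replicate 2. For CDC25C the log2 fold change was -0.57, with a standard error of 0.44, and -0.24 without that library.

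TIMELESS and TIPIN, which hold claspin at the fork, had log2 fold changes of -0.08 (0.07 when libraries were scaled by size alone) and 0.27, and -0.26 and -0.12 without untreated replicate 2. H2AX, listed as H2AFX, gave 191 and 118 CPM untreated and 172 and 156 CPM treated, and RNF8 and RNF168, the ubiquitin ligases that follow it on chromatin, had -0.29 and -0.17. H2AFX itself had -0.07 (0.0817 when libraries were scaled by size alone), and H2AFX, RNF8 and RNF168 had -0.37, -0.15 and -0.26 without untreated replicate 2. The other members of the ATM kinase family do not act mainly in the checkpoint. TRRAP, a pseudokinase, gave 118 and 22.9 CPM untreated and 100 and 98.0 CPM treated, MTOR had 169 and 87.6 against 172 and 160, and SMG1 had 99.2 and 58.2 against 96.8 and 130. Untreated replicate 2 was the lowest library in all 3. The log2 fold changes of TRRAP, MTOR and SMG1 were 0.33, 0.22 and 0.36, and -0.40, -0.17 and 0.0422 without that library.

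**Figure D5:**
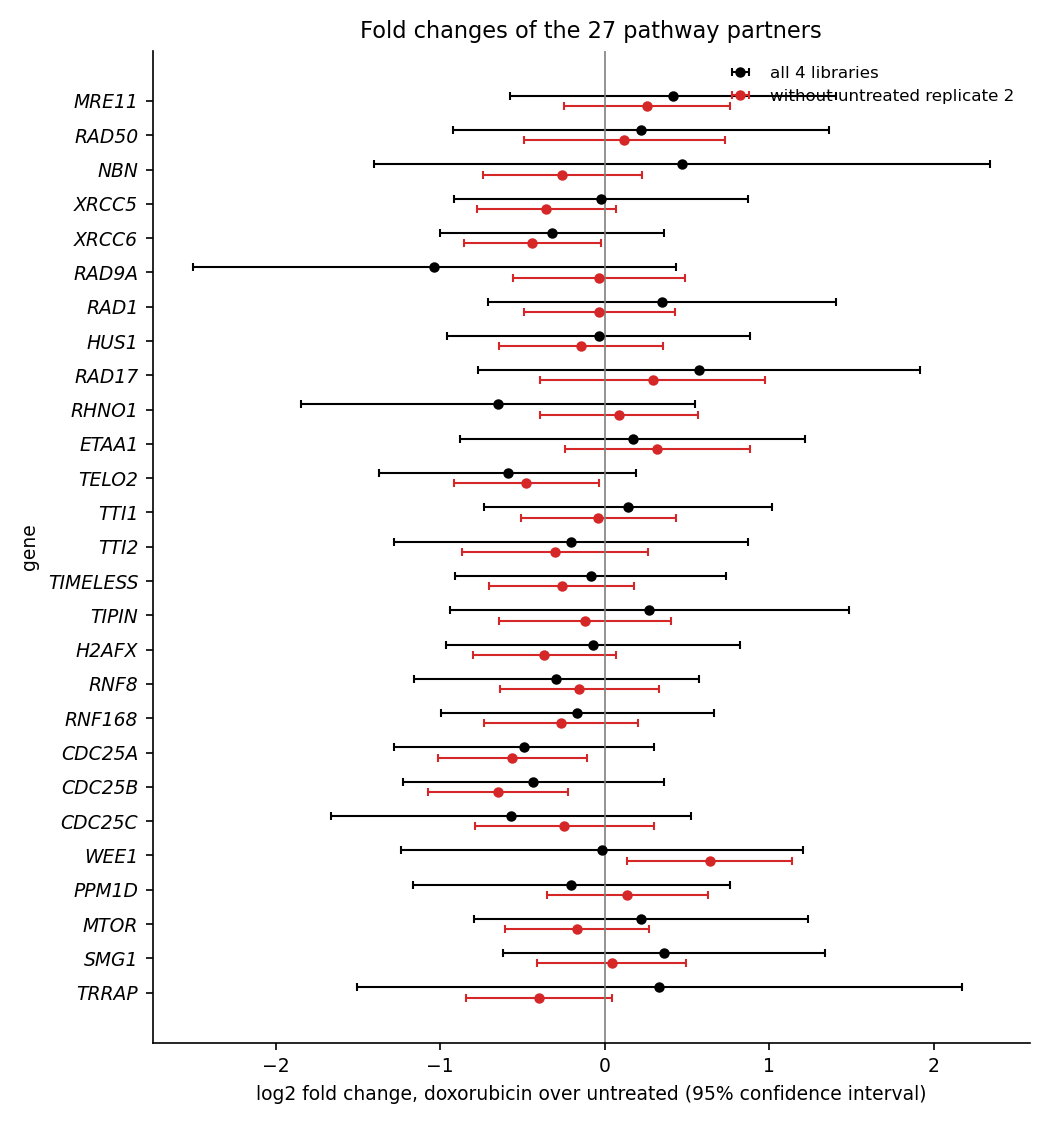
Log2 fold change of doxorubicin over untreated for the 27 pathway partners, with 95% confidence intervals, in black for all 4 libraries and in red without untreated replicate 2. All black intervals include 0, and 5 red ones do not, those of XRCC6, TELO2, CDC25A and CDC25B below 0 and that of WEE1 above it.

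The patterns of the 5 kinases over the 4 libraries were compared with all genes tested, by the Euclidean distance of log2 CPM centred on each gene's mean. The nearest genes were OXSR1, TMEM267 and RNF24 for ATM (distances 0.0406 to 0.0477) and KTN1, GNG12 and ELK3 for ATR (0.0173 to 0.0369). For PRKDC they were EXOSC7, LUZP1 and SNORD58C (0.0235 to 0.0410), for CHEK1 XRCC5, EXOSC7 and NFKBIA (0.0307 to 0.0377), and for CHEK2 WDR59, UTP18 and RSAD1 (0.0247 to 0.0420). Within the set, PRKDC and CHEK1 were the closest pair, at a distance of 0.0513, followed by CHEK2 and TP53BP1 at 0.203. ATRIP was the farthest gene from 8 of the other 9. Such likeness rests on 4 libraries, 1 of which stands apart. SNORD58C had only 0.381 to 0.689 CPM, a level at which counting error can exceed the distance given.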

How the data were processed

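RNA-seq counts of 2 untreated and 2 doxorubicin-treated libraries labelled HepG2 were used. The authors checked and trimmed reads (FastQC, Cutadapt), aligned them (HISAT2), assigned them to genes (HTSeq) and deposited raw whole-number counts without normalization, against GENCODE release 31 (GRCh38) as the file header says. Versions and the use of strand are not given in the sources used here. Tests ran over all genes in edgeR 4.0.16 under R 4.3.3, by glmQLFTest after filterByExpr and TMM (prior count of 0.125, Benjamini-Hochberg adjustment), and with DESeq2 1.42.0 as an alternative. TMM factors were 0.944, 0.951, 1.02 and 1.09. CPM used the library total, between 27572740 and 36272180, and 3 counts, the detection floor, correspond to 0.0827 to 0.109 CPM. Positions and merged exon lengths came from GENCODE release 44 (GRCh38), matched by symbol. Replicates were grouped by title. Alternatives were other tests, scalings and filters, a replicate block and each library left out. The scripts were run on simulated counts with known changes, which checks that they run and not the results given here. With 2 libraries in each group and intervals this wide, a lack of calls does not show a lack of change. The members and gene lists were chosen with earlier results of these data known. Genes named are the 10 members, the 27 partners, genes beside a member and the 3 nearest patterns of each kinase. Figures and tables used Python 3.11.15, pandas 2.3.3, NumPy 2.4.6, SciPy 1.17.1 and Matplotlib 3.10.9.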

Additional observations from a re-analysis of the deposited data

How the results depend on the processing

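No gene passed the thresholds with the quasi-likelihood test of edgeR (768 at an unadjusted p-value under 0.05), and the count was also 0 with each other scaling (RLE, upper quartile, size of the library), without a filter, with a CPM filter, a prior count of 2, no minimum fold change and the earlier form of the fit, the last chosen after seeing the data. The exact test called 38 genes, the likelihood ratio test 64 and DESeq2 89. The replicate block called 20 genes and none of the 10 members or 27 partners, and the correlation between the deviations of libraries that share a number was 0.0219, so the numbers were not taken as pairs. With each library left out in turn, 0 to 8697 genes were called (8697 without untreated replicate 1, 815 without untreated replicate 2 and 0 without either doxorubicin library). The causes were not tested.

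Among the 10 members, 1 (ATRIP) had an unadjusted p-value under 0.05 in DESeq2 and both other edgeR tests, and 0 to 9 did with a library left out, 9 without untreated replicate 1. Their median log2 fold change kept within 0.12 and 0.33 in the settings with 4 libraries and ran from -0.27 to 0.61 with a library left out. The partners with such a p-value numbered 0 to 13 with a library left out, 13 without untreated replicate 1. That fit rests on 1 untreated library, and 62.2% of all genes had such a p-value in it. Whether the members or partners differ from that share was not tested. The median of the partners ran from -0.15 to 0.17 with a library left out, and was 0.12 with library size alone.

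Signs turned for PRKDC with DESeq2 (-0.0305), RLE factors (-0.0306) and upper-quartile factors (-0.0045), and for CHEK1 with library size alone (0.13), no filter (0.0091) and the replicate block (0.0256). Library size alone turned XRCC5 (0.13), HUS1 (0.12), TIMELESS (0.0672), H2AFX (0.0817) and WEE1 (0.14). No filter turned XRCC5 (0.0166), HUS1 (0.0198) and WEE1 (0.0765), and the replicate block XRCC5 (0.0308) and WEE1 (0.055). With a library left out, log2 fold changes that changed sign ran from -0.32 to 0.55 (PRKDC), -0.37 to 0.51 (CHEK1), -0.30 to 1.56 (CHEK2), -0.12 to 1.51 (TP53BP1), -0.51 to 0.22 (MDC1), -0.36 to 0.50 (XRCC5), -0.14 to 0.17 (HUS1), -0.26 to 0.20 (TIMELESS), -0.37 to 0.39 (H2AFX), -0.26 to 0.0245 (RNF168), -0.26 to 2.16 (NBN), -0.0332 to 0.97 (RAD1), -1.06 to 0.0849 (RHNO1), -0.0391 to 0.43 (TTI1), -0.12 to 0.92 (TIPIN), -0.39 to 0.64 (WEE1), -0.40 to 0.14 (PPM1D), -0.17 to 0.84 (MTOR) and -0.40 to 2.03 (TRRAP). The direction was the same in every fit for ATM, ATR, TOPBP1, ATRIP and CLSPN. Among the 10 members MDC1 had the fewest counts, 113 to 227.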
